A study of Rattus norvegicus with 6 samples.

Results

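The enzymes examined here make the lipid mediators called prostaglandins and the gas nitric oxide, or, in 1 case, break prostaglandins down. The set was defined by name as Pla2g4a, Ptgs1, Ptgs2, Ptges, Ptges2, Ptgis, Hpgd, Nos1, Nos2 and Nos3, and its members are all genes of the expression table that carry 1 of these 10 names. The table holds 30957 genes, and 9 of the 10 names have a row in it. Nos2, the inducible nitric oxide synthase, is the name without a row and so was not analysed here. RNA-seq had been performed on sciatic nerves of Sprague Dawley rats, 3 of them crushed and 3 intact and contralateral, and the methods give the crushed samples as proximal stumps taken 4 days postinjury (dpi) from adult male animals, a time that the sample labels do not state. The intact nerve lies opposite the lesion in an operated rat and is no nerve of an unoperated animal, and no genotype, transgene or drug is named for either group. No label ties a crushed nerve to the intact nerve of the same rat. The main test therefore treated all nerves as independent, although a crushed and an intact nerve may share a rat. Its p-values set the difference between the groups against the spread between nerves.

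Prostaglandin synthesis begins when a phospholipase A2 frees arachidonic acid from membrane lipid. A cyclooxygenase then turns it into prostaglandin H2, from which terminal synthases make prostaglandin E2, prostacyclin and the other prostanoids that act on receptors at the cell surface, while nitric oxide synthases make nitric oxide from arginine with tetrahydrobiopterin as a cofactor. In injured tissue both products are known for their parts in inflammation, blood flow and pain.

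The 6 libraries held between 24844371 and 27139360 reads counted on genes, so that 3 counts, used here as the limit of detection, were 0.110 to 0.121 CPM (counts scaled to library size and normalized between nerves). A value of 0 in this table needs care, since 13532 genes (43.7%) were at 0 in all nerves, and of 20 widely used genes looked up for this purpose Hprt1 and Hsp90aa1 were also listed at 0 throughout. Most defining markers of the labelled tissue were nearly absent from intact and crushed nerves alike: the myelin gene Mbp had at most 1 count in any nerve, Mag 0, and the Schwann cell factor Sox10 at most 1. The myelin gene Pmp22 had 821 to 968 counts and the proliferation gene Mki67 had 37037 to 43837. The leukocyte gene Ptprc and the macrophage genes Adgre1, Cd163, C1qa and Tyrobp were at 0 in every nerve, whereas the macrophage genes Cd68 and Csf1r had 29 to 52 and 18 to 29 counts per nerve. Expression was compared with edgeR's quasi-likelihood test in the 12393 genes that passed its expression filter, and a gene is called higher or lower in crushed nerves at a Benjamini-Hochberg adjusted p under 0.05.

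Of the 9 members with a row, 7 had at least 1 count and 5 passed the filter. Ptgs1, which encodes cyclooxygenase 1, was called lower in crushed nerves, by 29.0%, and was the single member called in either direction. Ptgs2, which encodes the inducible cyclooxygenase 2, had almost the same mean in both groups. No member was called higher, although Ptges2 had an unadjusted p under 0.05 in edgeR's test, as did 2009 of all genes tested (16.2%). Of all genes tested, 387 (3.12%) were called, 182 of them (1.47%) higher and 205 (1.65%) lower. At the study's own limits, which ask for a log2 fold change beyond 1 in either direction together with a p under 0.001 (taken as unadjusted), none of the 5 members and 35 of all genes tested (0.282%) were called. DESeq2 and limma likewise called Ptgs1 lower and no member higher.

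The start regions of both cyclooxygenase genes are shown first because Ptgs1 was the member called and Ptgs2 encodes the other enzyme of the same reaction. Each run is the 250 bases before the annotated start on the plus strand of the GRCr8 assembly, from RefSeq, chr3:39981169-39981418 for Ptgs1 and chr13:64713813-64714062 for Ptgs2. Capitals mark matches, and none was found in Ptgs1.
Ptgs1: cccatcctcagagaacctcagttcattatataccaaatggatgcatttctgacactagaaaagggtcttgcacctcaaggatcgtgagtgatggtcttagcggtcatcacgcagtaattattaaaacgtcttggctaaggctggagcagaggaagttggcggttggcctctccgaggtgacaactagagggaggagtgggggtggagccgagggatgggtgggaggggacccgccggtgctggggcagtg
Ptgs2: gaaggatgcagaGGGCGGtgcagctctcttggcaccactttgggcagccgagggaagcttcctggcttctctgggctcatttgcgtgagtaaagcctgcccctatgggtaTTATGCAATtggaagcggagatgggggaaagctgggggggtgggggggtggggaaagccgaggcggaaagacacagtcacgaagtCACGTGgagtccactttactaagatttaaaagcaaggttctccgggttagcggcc
These 4 motifs were searched on both strands: the E-box CACGTG, the C/EBP motif TTNNGNAAT, the GC box GGGCGG and the NF-kB consensus. In Ptgs2 the GC box lay 238 to 233 bases before the start, the C/EBP motif 140 to 132 bases before it and the E-box, which reads alike on both strands, 55 to 50 bases before it. These matches do not overlap. The NF-kB consensus was in neither window. Among 27457 promoters of the same length in the RefSeq table, 5.79% held the E-box, 10.7% the C/EBP motif, 32.4% the GC box and 6.41% the NF-kB consensus. The GC content of the windows was 54.4% for Ptgs1 and 57.2% for Ptgs2. Promoters were found in that table for 7 of the 10 names, and those of Ptges, Nos1, Nos3 and Hpgd each held a GC box as well. A match in these letters is a description of the sequence and was not measured as binding.

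The first step was represented by Pla2g4a, the cytosolic phospholipase A2 that releases arachidonic acid, on chromosome 13 from 66988937 to 67206693 in the coordinates of the table. Its counts were 414, 474 and 399 in intact nerves and 447, 402 and 390 in crushed nerves. The ranges overlapped, with the highest value in an intact nerve. Normalized CPM was 16.8 ± 1.01 (SD, n = 3) in intact and 15.6 ± 0.781 in crushed nerves, and the log2 fold change was -0.11 (standard error 0.0807, 95% interval -0.29 to 0.07, edgeR adjusted p = 0.541). The interval includes 0.

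Ptgs1 came next in the pathway, and it was the member with the most reads. Its counts on chromosome 3, from 15560712 to 15582344, were 2215, 2424 and 2249 in intact nerves and 1698, 1713 and 1672 in crushed nerves. Scaled for depth, these were 87.5, 91.9 and 90.8 CPM against 62.2, 63.1 and 66.7 CPM. All 3 crushed nerves lay below all 3 intact nerves, with a gap between the groups that was wider than the range within either. The means were 90.1 ± 2.25 and 64.0 ± 2.41 CPM (SD, n = 3 each), and Ptgs1 fell by 0.49 on the log2 scale (standard error 0.0480, 95% interval -0.60 to -0.39, edgeR adjusted p = 0.000206). As a percentage the change was -29.0%, with a 95% interval of -34.0% to -23.5%. An exact two-sided permutation test of the CPM values alone gave p = 0.1, the smallest value that 3 against 3 nerves allow.

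The change in Ptgs1 was smaller than the study's limit of 1 on the log2 scale, but was among the larger decreases of all genes tested. The middle 95% of log2 fold changes of all genes tested ran from -0.46 to 0.44, so Ptgs1 lay just beyond its lower limit. The median log2 fold change of the 205 genes called lower was -0.36, and 12 of them had a smaller p than Ptgs1. Of the 4 other genes tested within 500 kb of Ptgs1, Mrrf, Rbm18 and Ndufa8 had log2 fold changes of -0.04, 0.09 and -0.02. The fourth, AC131483.1, was called lower as well, at -0.48 on the same scale (standard error 0.106, edgeR adjusted p = 0.0369), from 261, 272 and 213 counts in intact nerves to 201, 181 and 174 in crushed nerves.

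Ptgs2, the cyclooxygenase whose mRNA is known to be induced by cytokines and growth factors, lies on chromosome 13 from 67351087 to 67359335, 144 kb from Pla2g4a. Its counts were 84, 93 and 117 without injury and 109, 90 and 107 after crush. The highest count was in an intact nerve, and the groups overlapped fully. Normalized CPM was 3.86 ± 0.758 (SD, n = 3) and 3.86 ± 0.491, and the log2 fold change was 0.0012 (standard error 0.167, edgeR adjusted p = 0.998). With about 100 reads per nerve the 95% interval of the change ran from -22.5% to 29.2%, so a difference of the size seen in Ptgs1 lay outside it on the lower side, while an increase of up to the upper limit lay within it.

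**Figure D1:**
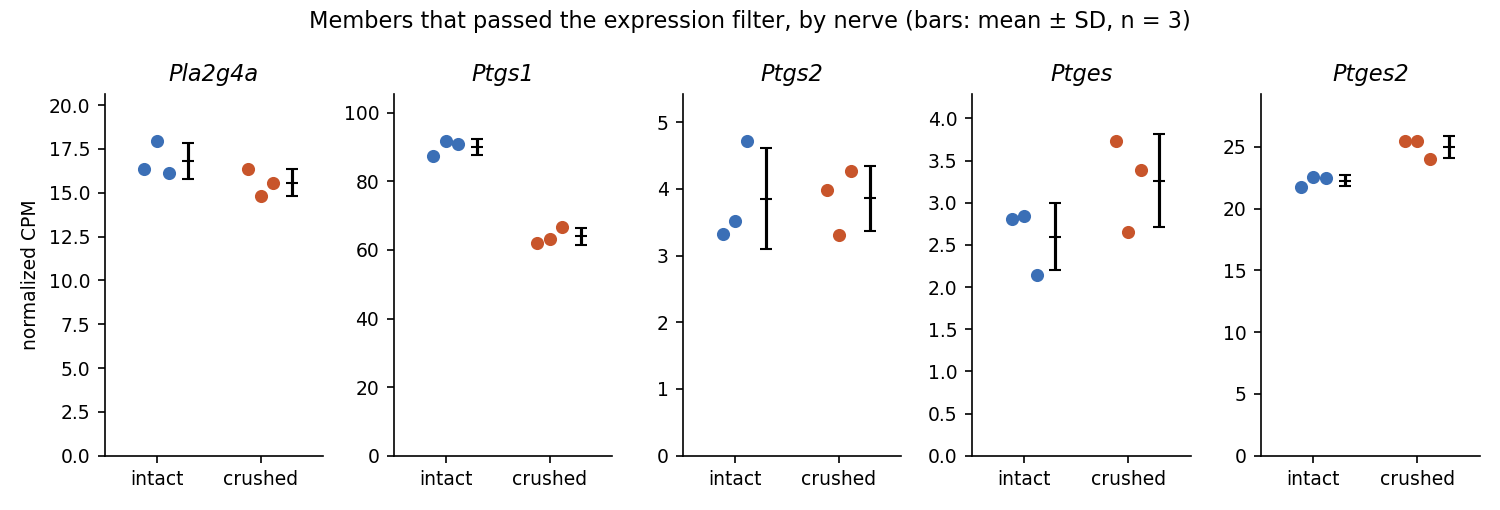
Normalized CPM (vertical axis, from 0, with its own scale in each panel) of the 5 members that passed the expression filter, in each intact and crushed nerve (points), with mean and SD (bars, n = 3). Ptgs1 is at 62.2 to 66.7 CPM in crushed nerves and 87.5 to 91.9 CPM in intact nerves, while the points of Pla2g4a, Ptgs2 and Ptges overlap.

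The 2 cyclooxygenases can be compared with each other only per gene length, for which the deposited FPKM (fragments per kilobase, relative to library size) was used. The FPKM of Ptgs1 was 41.1, 40.7 and 30.0 times that of Ptgs2 in intact nerves and 24.3, 29.7 and 24.4 times in crushed nerves. Intact nerve 3, which had the most Ptgs2, nearly reached the crushed range. The mean ratio was 37.3 ± 6.30 and 26.1 ± 3.09 (SD, n = 3), so Ptgs1 supplied 97.3% ± 0.485 of cyclooxygenase FPKM in intact and 96.3% ± 0.397 in crushed nerves. The sum of both was 32.8 ± 0.984 FPKM in intact and 23.8 ± 0.942 FPKM in crushed nerves. The difference between the log2 fold changes of the 2 genes was tested directly on the log2 ratio of their CPM within each nerve, which was 4.56 ± 0.259 in intact and 4.06 ± 0.166 in crushed nerves, a difference of -0.50. The groups did not overlap in any of these 4 measures, each with p = 0.1 in the exact two-sided permutation test, again the smallest value possible, or 0.12 after Benjamini-Hochberg adjustment over 6 such measures. This test could not have passed a threshold of 0.05 in so few nerves, so it does not decide whether the pair changed unequally.

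**Figure D2:**
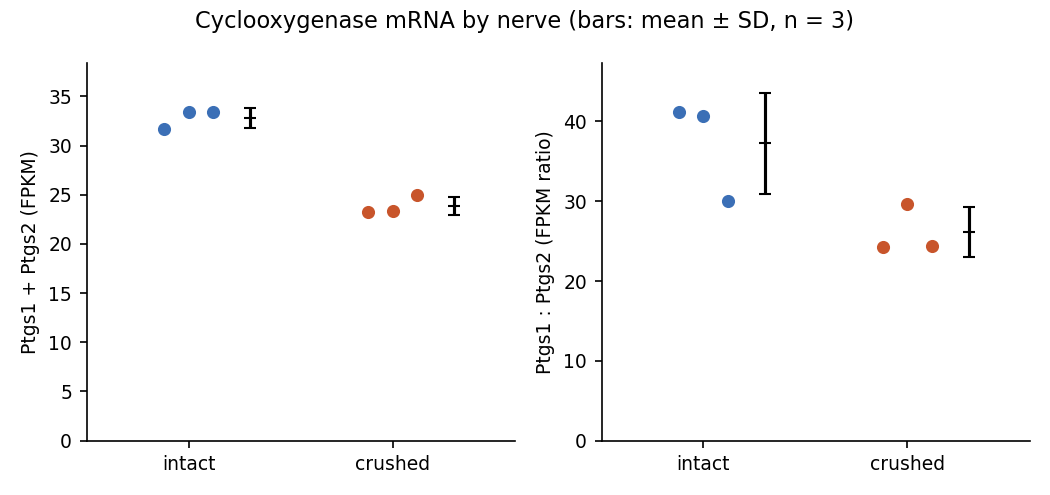
Summed FPKM of Ptgs1 and Ptgs2 (left) and the ratio of their FPKM (right) in each intact and crushed nerve (points), with mean and SD (bars, n = 3). The sum is 32.8 FPKM on average in intact and 23.8 FPKM in crushed nerves, and the lowest intact ratio, 30.0, is next to the highest crushed ratio, 29.7.

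Of the synthases that act after the cyclooxygenases, Ptges encodes the inducible, membrane-bound prostaglandin E synthase and Ptges2 a second, constitutively made one. Reads on Ptges (chromosome 3, 9727408 to 9738752) numbered 71, 75 and 53 in intact and 102, 72 and 85 in crushed nerves. Crushed nerve 2 lay within the intact range. Normalized CPM was 2.60 ± 0.396 and 3.26 ± 0.554 (SD, n = 3), a log2 fold change of 0.33 whose 95% interval, -0.07 to 0.72, includes 0 (standard error 0.179, edgeR adjusted p = 0.405).

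For Ptges2 (chromosome 3, 11424099 to 11431402) the counts were 550, 595 and 556 without injury and 696, 691 and 601 after crush, or 21.7, 22.5 and 22.4 CPM against 25.5, 25.5 and 24.0 CPM. The lowest crushed nerve exceeded the highest intact one by a small margin. The log2 fold change was 0.17 (standard error 0.0641, 95% interval 0.03 to 0.31), with an unadjusted p = 0.0247 and an adjusted p = 0.225 in edgeR's test, so Ptges2 was not called. Groups without overlap, as in Ptgs1 and Ptges2, were found in 2 of the 5 members tested and in 2845 of all genes tested (23.0%). The FPKM of Ptges2 was 3.96 to 6.08 times that of Ptges over the 6 nerves.

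Ptgis, the prostacyclin synthase of vessel walls, was counted 2, 1 and 2 times in intact and 2, 2 and 3 times in crushed nerves. All of these are at or under the level of 3 counts, and no fold change is given. Hpgd, the dehydrogenase that inactivates prostaglandins, was listed at 0 in every nerve.

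Of the nitric oxide synthases, Nos1 and Nos3 were barely represented, and Nos2 was not analysed here. Nos1, the neuronal enzyme, was listed at 0 in all 6 nerves. Nos3, the endothelial enzyme, was counted 12, 6 and 6 times in intact and 10, 8 and 17 times in crushed nerves, and did not pass the filter. In a fit of all genes with at least 1 count its log2 fold change was 0.49 (standard error 0.470, 95% interval -0.53 to 1.51, edgeR adjusted p = 0.684), and 0.07 without crushed nerve 3, which held the highest count. Of 7 endothelial markers with a row, 3 passed the filter and none was called, namely Kdr with 13 to 33 counts per nerve, Vwf with 10 to 30 and Tek with 49 to 100. Tek had a log2 fold change of -0.66 (edgeR adjusted p = 0.0874), while Cdh5 had at most 5 counts in any nerve and Cldn5 was listed at 0. That list summed to 4.66 to 5.53 CPM in intact and 3.77 to 5.08 CPM in crushed nerves, of which Tek had 3.57 and 2.25 CPM on average. The part of that list in the level of Nos3 was not tested. Nos3, on chromosome 4 from 7320668 to 7342410, shares 362 bases with Atg9b, which had 20 to 35 counts per nerve, and without strand information reads in that stretch cannot be assigned to either gene. The counts therefore describe nitric oxide synthase expression only as low in Nos3, with 0.0707 FPKM on average.

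**Figure D3:**
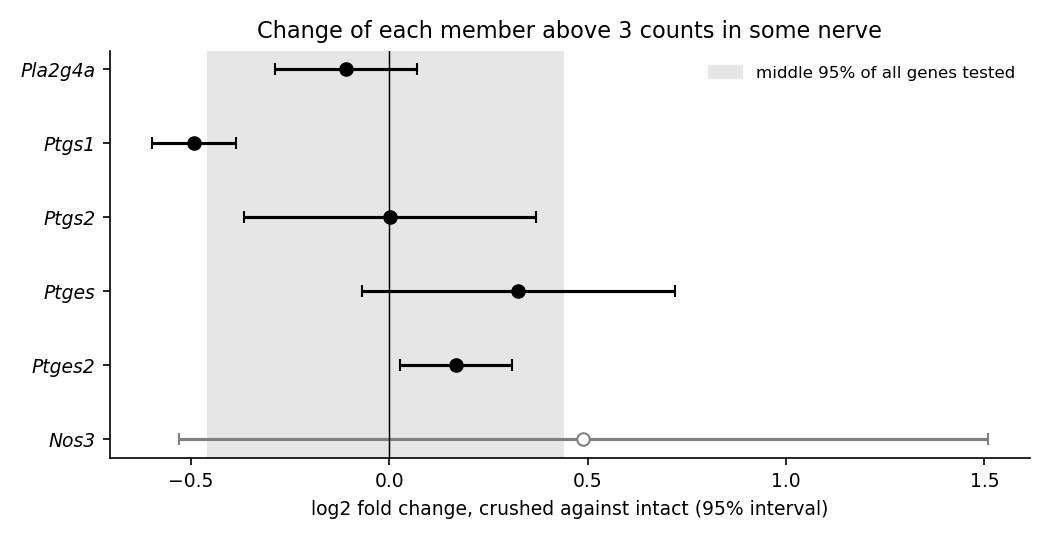
Log2 fold change of crushed against intact nerves (horizontal axis) with its 95% interval for the 6 members with more than 3 counts in some nerve. Filled points passed the filter, the open point of Nos3 comes from the fit without it, and the grey band holds the middle 95% of all genes tested. The interval of Ptgs1, -0.60 to -0.39, lies below 0, and that of Nos3, at 6 to 17 counts per nerve, runs from -0.53 to 1.51.

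Ordered by FPKM over the 6 nerves, Ptgs1 came first with a mean of 27.4, followed by Ptges2 with 10.9, Pla2g4a with 4.65, Ptges with 2.34, Ptgs2 with 0.882, Nos3 with 0.0707 and Ptgis with 0.0364. Between Ptgs1 and Nos3 the ranges of neighbours in this order did not meet in any nerve. Those of Nos3, 0.0420 to 0.127, and Ptgis, 0.0177 to 0.0566, overlapped. The position of Ptgs1 was the same in crushed nerves, where its lowest value, 22.3 FPKM, exceeded the highest of Ptges2, 11.9 FPKM. Ptgs1, Ptges, Ptges2 and Ptgis are all on chromosome 3, and of the 13 and 24 genes tested within 500 kb of Ptges and Ptges2, none was called by edgeR.

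The other genes of both pathways were taken from lists of 73 names, of which 69 rows were found, 53 had at least 1 count and 33 passed the filter. None of the 33 was called higher or lower by edgeR, against 3.12% of all genes tested. At an unadjusted p under 0.05, 4 of the 33 genes were lower and none higher, beside 16.2% of all genes tested in either direction and 9.50% lower, so these 4 are a number near the background. DESeq2 called 1 of the 33 lower and none higher, while limma called none, with 5 at an unadjusted p under 0.05. The log2 fold changes ran from -0.57 to 0.20 with a median of -0.06, against a median of -0.0017 over all genes tested.

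In the prostanoid lists 15 of 34 rows were tested and none was called. Among terminal synthases, Ptges3, the cytosolic prostaglandin E synthase that is also the HSP90 co-chaperone p23, was by far the most abundant, with 289 FPKM, and supplied 95.9% ± 0.271 of the summed FPKM of Ptges, Ptges2 and Ptges3 in intact and 95.3% ± 0.229 in crushed nerves (SD, n = 3, exact two-sided permutation p = 0.1). Its log2 fold change was -0.03 (standard error 0.0479, edgeR adjusted p = 0.798). Ptgds and Hpgds, which make prostaglandin D2, were listed at 0. The prostanoid receptors were low throughout: Ptger2, a receptor for prostaglandin E2, was the highest with 1.24 FPKM and had a log2 fold change of -0.09 (edgeR adjusted p = 0.856). Of the other phospholipases A2, the lysosomal Pla2g15 was the highest at 8.93 to 11.2 FPKM with a log2 fold change of 0.09 (edgeR adjusted p = 0.613). Ptgr2, a reductase that helps to inactivate prostaglandins, was the highest gene of transport and breakdown at 22.0 FPKM, with a log2 fold change of -0.06 (edgeR adjusted p = 0.583). In the leukotriene branch, which competes for arachidonic acid, Lta4h had 77.5 FPKM and a log2 fold change of -0.03 (edgeR adjusted p = 0.830), whereas the first enzyme, Alox5, was listed at 0.

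In the nitric oxide lists 15 of 25 rows were tested and none was called. Of the 4 genes with an unadjusted p under 0.05, 3 are described here, and apart from Slc7a1 they are named because of these values. Ddah1, which breaks down an endogenous inhibitor of the synthases, had a log2 fold change of -0.23 (standard error 0.0625, edgeR adjusted p = 0.0814), from 46.0 ± 2.65 to 39.1 ± 1.82 CPM (SD, n = 3). Slc7a1, the arginine transporter that was the highest gene of arginine supply at 14.1 FPKM, had a log2 fold change of -0.14 (edgeR adjusted p = 0.102). Gchfr, the feedback regulator of tetrahydrobiopterin synthesis, had one of -0.20 (edgeR adjusted p = 0.230). The crushed nerves lay below the intact nerves in each of these 3 genes, and no adjusted p reached the threshold. Groups without overlap were found in 8 of the 33 pathway genes tested, beside 23.0% of all genes tested. Genes picked by a small p tend to separate in this way, so the separation adds nothing to these values.

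The remaining genes of the nitric oxide lists showed much cofactor machinery beside few reads on Nos3 and none on Nos1. All 6 genes of tetrahydrobiopterin metabolism passed the filter, at 5.86 to 37.4 FPKM. Gch1, the rate-limiting enzyme of that pathway, had 26.5 FPKM and a log2 fold change of -0.04 (edgeR adjusted p = 0.779), and Qdpr, the highest of the 6, one of 0.0045 (edgeR adjusted p = 0.980). Among regulators, the chaperone gene Hsp90ab1 had 935 FPKM and a log2 fold change of 0.06 (edgeR adjusted p = 0.358). Of the cyclic GMP targets, Gucy1a3, Gucy1a2 and Gucy1b3 were listed at 0, and Pde5a was the highest at 0.487 FPKM, with a log2 fold change of 0.14 (edgeR adjusted p = 0.791).

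**Figure D4:**
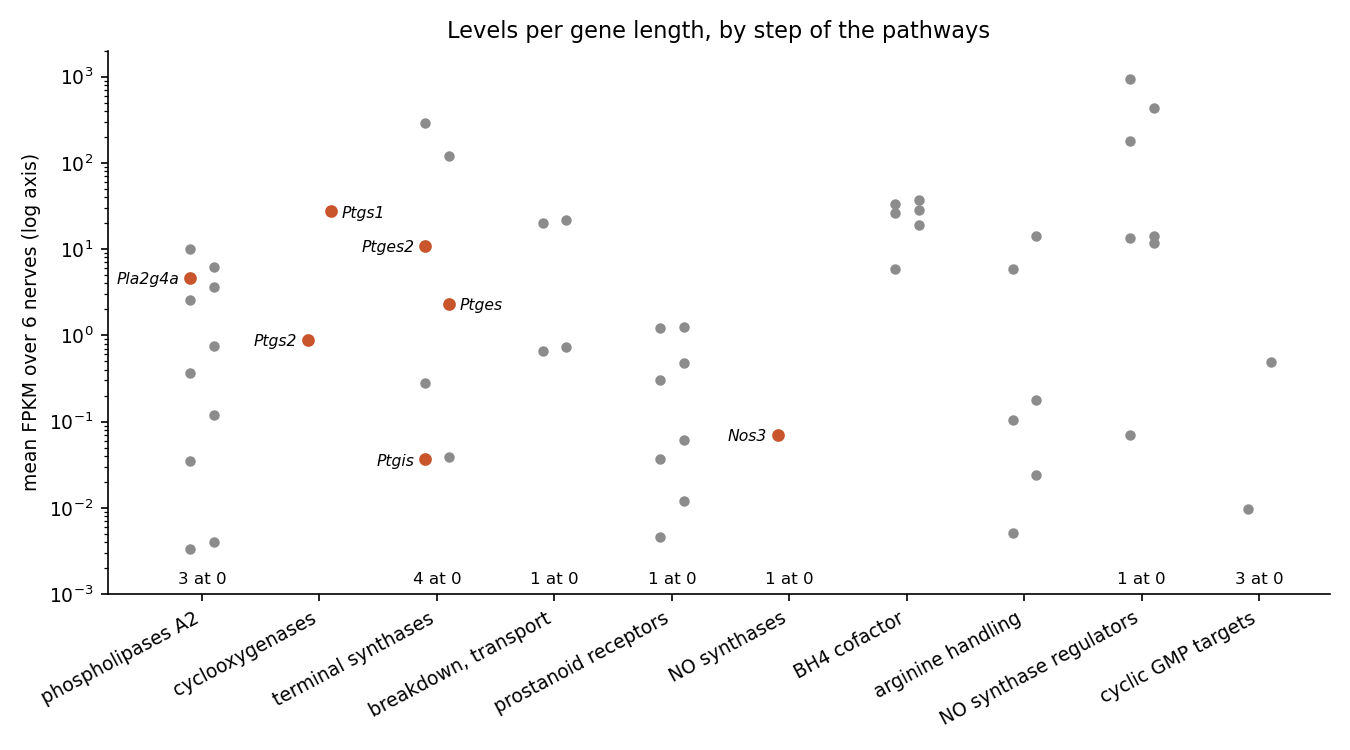
Mean FPKM over the 6 nerves (log axis) of the members (orange, named) and the other pathway genes (grey), by step, with the number of rows at 0 written at the foot. Ptgs1 stands at 27.4 FPKM and Ptgs2 at 0.882, while Nos3 is at 0.0707 FPKM beside tetrahydrobiopterin (BH4) genes at 5.86 to 37.4.

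**Figure D5:**
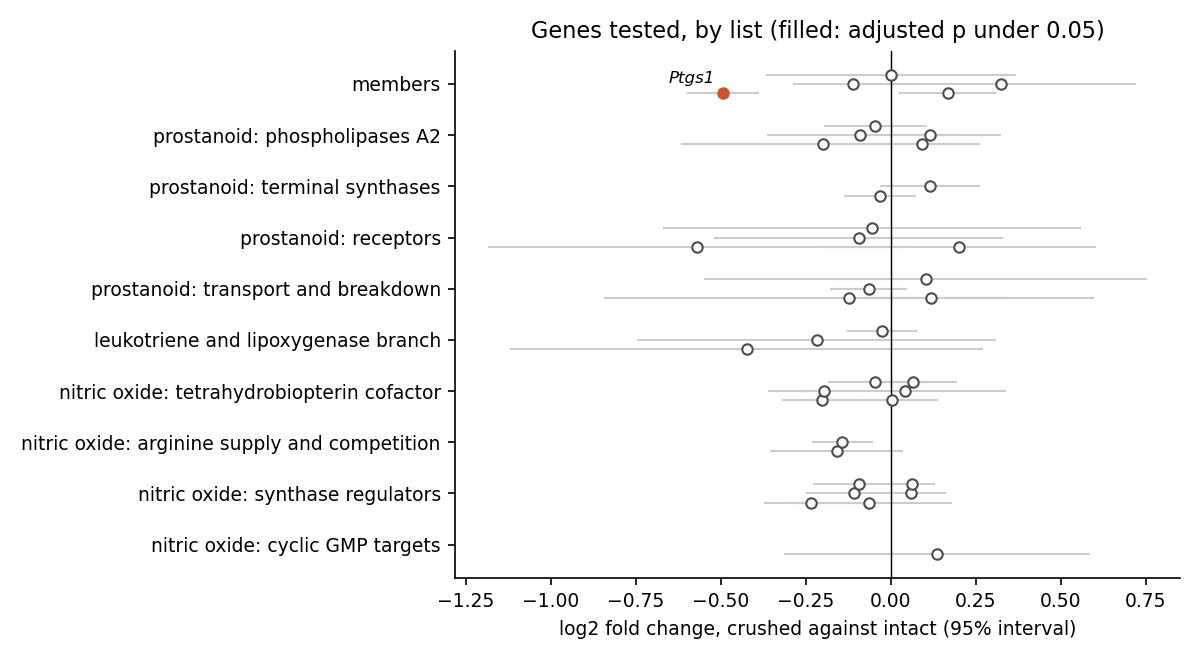
Log2 fold change with 95% interval (horizontal axis) for the members and the other pathway genes that passed the filter, by list. Ptgs1 is the single filled point, and the 33 other pathway genes lie between -0.57 and 0.20.

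Markers of several cell types were set beside the lower level of Ptgs1, because in a whole nerve fewer cells of a type and less RNA per cell cannot be told apart. Of 8 fibroblast markers 5 were tested and 3 called lower, Col1a1 by a log2 fold change of -0.69, Col3a1 of -1.76 and Pdgfrb of -0.77 (edgeR adjusted p = 0.000662, 0.0268 and 0.00106). Pdgfra and Thy1 had log2 fold changes of 0.19 and -0.23 and were not called, while Col1a2, Dcn and Lum were listed at 0. The summed level of that list was 197 to 211 CPM in intact and 170 to 188 CPM in crushed nerves. Of 4 smooth muscle and pericyte markers tested, Cspg4 was called lower, with a log2 fold change of -0.35 (edgeR adjusted p = 0.00103), and the list summed to 210 to 226 CPM in intact against 171 to 175 CPM in crushed nerves. Erbb3, the 1 tested gene of the Schwann cell lineage, was called lower as well, with a log2 fold change of -0.59 (edgeR adjusted p = 0.0222), and that list summed to 5.12 to 5.61 CPM against 3.37 to 3.59 CPM. Most of each of these sums came from 1 gene, so a sum does not stand for its whole list. Means in intact and crushed nerves were 124 and 106 CPM for Thy1, 181 and 142 CPM for Cspg4, and 5.18 and 3.44 CPM for Erbb3. The 11 macrophage markers summed to 1.93 to 3.19 CPM in intact and 2.64 to 3.23 CPM in crushed nerves, with neither of the 2 tested, Cd68 and Csf1r, called, and none of the 7 proliferation markers was called. The part of these lists in the level of Ptgs1 was not tested.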

How the data were processed

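RNA-seq of 3 crushed and 3 intact sciatic nerves was analysed from 1 table in which the authors deposited, per Ensembl gene and nerve, a read count without normalization and an FPKM value computed by them. The submitters' processing notes name HISAT2, StringTie 1.3.0 and Rnor_6.0. Their roles, the counting settings and strandedness are not given in the sources used here, and the methods and the labels describe different RNA extraction. The methods also state that rRNA was removed and the RNA was then treated with RNase R. Levels, rankings and ratios given here are thus of RNA treated in this way, as the methods describe it. The part of that treatment in them, in the counts and in the genes listed at 0, was not tested. Coordinates are those of the table. RefSeq promoters are of GRCr8, and the builds were not mixed. There were 0 other columns of values.

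Counts were tested with edgeR 4.0.16 (quasi-likelihood, TMM, filterByExpr, R 4.3.3) in all 6 nerves, with Benjamini-Hochberg adjustment over 12393 genes. Alternatives were DESeq2 1.42.0, RLE factors, scaling by total count, no filter (genes with at least 1 count), limma 3.58.1 on log2(FPKM + 0.1), a replicate block and each nerve left out in turn. Pairs of nerves within a group differed by more than sampling noise (chi-square per degree of freedom 3.27 to 11.8), with intact nerve 1 farthest from the others of its group. Floors of 3 counts cover counting error only. The calculation was also run on simulated data, in which the changes set were larger than those of the members. That run does not show how well changes of the members' size are found, and no result here rests on it.

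Genes named are all 10 members, the gene of highest mean FPKM in each pathway list, any pathway gene called, and marker genes, while others are named as chosen after their values were seen. The members and lists were chosen with earlier results of these data known. The 20 widely used genes were added after the values were seen. Some genes of the lists are not reported here.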

Additional observations from a re-analysis of the deposited data

How the results depend on the processing

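Ptgs1 was the 1 member called lower, and no member was called higher or passed the study's limits, under all 12 alternatives. Its log2 fold change ran from -0.52 to -0.47, and its adjusted p was at most 0.00304. Without 1 nerve in turn, the number of members called lower was 1 each time. With the replicate number as a block, Ptgs1 had a log2 fold change of -0.49 (edgeR adjusted p = 0.00137) and no other member or pathway gene was called. The labels number the nerves 1 to 3 in both groups, but the deviations of same-numbered nerves had correlations of -0.00965, -0.00262 and 0.0709 across genes, and 2 of 6 nerves correlated best with their own number, so the numbers were not taken as pairs. Over all genes, 387 were called by edgeR, 300 with the block, 512 by DESeq2 and 242 by limma. DESeq2 called 1 pathway gene lower where edgeR called 0; the cause was not tested.

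A direction changed only without single nerves, in 6 genes that were not called. Ptgs2 had log2 fold changes of -0.0253 and -0.0754 without crushed nerves 1 and 3, and of -0.0890 and -0.0569 without intact nerves 1 and 2, in a range up to 0.173. Lta4h had 0.0221 without intact nerve 1 in a range down to -0.0566. Pde5a had -0.0427 without crushed nerve 3 in a range up to 0.231. Qdpr had -0.000347, -0.00247, -0.0133 and -0.0324 without crushed nerve 1, crushed nerve 2, intact nerve 2 and intact nerve 3, in that order, in a range up to 0.0715. Ptger2 had 0.0758 and 0.00297 without crushed nerve 2 and intact nerve 3, in that order, in a range down to -0.203. Ptges3 had 0.00952 without intact nerve 3 in a range down to -0.0744. The cause was not tested. For Nos3 the log2 fold change without 1 nerve ran from 0.07, without crushed nerve 3, to 0.91. Depth limits Ptgs2, Ptges, Nos3 and Ptgis, whose counts are low, and a gene listed at 0 was not shown to be unexpressed.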

Other observations

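3 further genes of the table are described as prostaglandin genes and stood in none of the lists. Ptgfrn, which encodes a cell surface protein that dampens binding to the prostaglandin F receptor, was counted 2253, 2461 and 2205 times in intact and 2521, 2518 and 2257 times in crushed nerves. Ptges3l1, a gene similar to Ptges3, was counted 83, 116 and 131 times in intact and 138, 134 and 122 times in crushed nerves; how reads shared with Ptges3 were counted is not stated. Ptgdrl was listed at 0 in all nerves. A gene described as similar to the inducible nitric oxide synthase, LOC497963, was also listed at 0 in every nerve and was not counted as Nos2.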
